A study of Mus musculus with 52 samples.

Results

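RNA of 10 genes tied to macrophage identity and lipid handling was followed across 52 mouse mammary tumours. The 10 are Apoe, Trem2, Cd68, Gpnmb, Spp1, Lpl, Adgre1, Lgals3, Fabp5 and Cd36. They were chosen by symbol, and each matched 1 of the 47729 Ensembl identifiers measured. All 10 passed the filter on low counts, which kept 17899 genes.

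The tumours grew from 100000 cells of 4T1, a mouse triple-negative mammary carcinoma line, placed in the 4th left mammary fat pad of Balb/C mice. Every mouse was given a single antibody intraperitoneally, 200 µg at each of 3 doses (days 7, 10 and 13 after the cells), and tumours of at most about 150 mm3 were taken. Anti-CTLA4 (clone 9D9) and anti-PD-L1 (clone 10F.9G2) bind proteins that restrain T cells, and the control was an isotype antibody (clone LTF-2). The aged hosts, older than 12 months, gave 8 anti-CTLA4, 8 anti-PD-L1 and 7 isotype tumours, and the young hosts, labelled 8 to 10 weeks old with a protocol range reaching 12 weeks, gave 12 anti-CTLA4, 10 anti-PD-L1 and 7 isotype tumours. Tumours of 1 group carry biological replicate numbers but no animal is named, and the p-values below reflect library-to-library spread, part of which may be technical.

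Macrophages engulf dead cells and lipoproteins and break them down in lysosomes, and they pass the cholesterol on to carriers or store it as droplets. In tissues rich in lipid or in dying cells, macrophages turn on a shared set of genes around the receptor Trem2, and cells of this kind are found in many tumours. Several of the genes are also made by other cells: Lpl and Cd36 by adipocytes, Cd36 by endothelium, and Spp1, Lgals3 and Fabp5 by carcinoma cells.

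Total counts ran from 9549847 to 53778370 per library, with a median of 20665733. The 3 sequencing batches that the labels number were unequally spread over the groups. All 7 young isotype libraries were of batch 2, which held no aged library, and all 8 aged anti-PD-L1 libraries were of batch 1. Aged and young libraries of 1 antibody therefore met in the same batch in useful number only under anti-CTLA4 in batch 1, with 7 aged and 4 young libraries. The other contrasts of age rest on batch differences estimated from the remaining groups. In addition, 4 libraries had a TMM scaling factor under 0.8: young anti-CTLA4 replicate 8, aged isotype replicate 3 and young isotype replicates 1 and 6. Macrophage transcripts were present throughout: the complement gene C1qa and the receptor gene Csf1r were above 0 TPM in every library. The adipocyte gene Adipoq was present throughout as well, and ran from 1.07 to 97.6 TPM.

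Each of the 10 genes is annotated as protein-coding by GENCODE on GRCm38. For 7 of the 10, RefSeq gives a promoter on GRCm38.p6. The 250 bases before the start site are shown for Cd68, Gpnmb and Trem2, which were lower in aged than in young tumours under anti-CTLA4, and for Spp1, which was higher. Capitals mark matches, on either strand, to TGANTCA, a motif of AP-1 factors, and to GAGGAA, a core bound by PU.1 and other ETS factors.
Cd68, chr11:69666171-69666420, minus strand: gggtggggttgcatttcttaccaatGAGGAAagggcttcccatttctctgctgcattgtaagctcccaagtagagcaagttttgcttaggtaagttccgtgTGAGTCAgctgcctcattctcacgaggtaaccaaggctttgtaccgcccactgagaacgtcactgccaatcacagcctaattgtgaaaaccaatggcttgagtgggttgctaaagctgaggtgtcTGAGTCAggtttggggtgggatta
Trem2, chr17:48346151-48346400, plus strand: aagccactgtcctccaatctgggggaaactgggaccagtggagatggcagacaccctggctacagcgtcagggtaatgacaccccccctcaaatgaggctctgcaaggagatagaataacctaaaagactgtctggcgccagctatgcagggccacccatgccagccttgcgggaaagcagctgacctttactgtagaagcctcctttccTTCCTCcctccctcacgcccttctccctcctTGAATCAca
Gpnmb, chr6:49036268-49036517, plus strand: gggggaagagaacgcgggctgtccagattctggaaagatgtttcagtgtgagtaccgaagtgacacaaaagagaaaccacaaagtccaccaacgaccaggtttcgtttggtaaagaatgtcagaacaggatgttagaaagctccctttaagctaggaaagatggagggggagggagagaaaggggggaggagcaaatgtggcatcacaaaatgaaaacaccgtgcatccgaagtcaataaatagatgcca
Spp1, chr5:104434861-104435110, plus strand: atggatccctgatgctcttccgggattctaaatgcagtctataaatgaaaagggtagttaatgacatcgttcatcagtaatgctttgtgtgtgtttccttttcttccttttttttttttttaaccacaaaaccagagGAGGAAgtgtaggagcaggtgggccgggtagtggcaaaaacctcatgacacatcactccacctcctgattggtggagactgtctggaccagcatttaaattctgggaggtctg
The window of Cd68 held 2 matches to TGANTCA and 1 to GAGGAA, and that of Trem2 held 1 of each. The Spp1 window shown held 1 match to GAGGAA, and the Gpnmb window held neither motif. A second start of Spp1 and the promoter of Lgals3, which also fell under anti-CTLA4, are not shown and held no match to either. Apoe and Cd36, which did not pass in that contrast, are not shown either. Of the 3 Apoe windows, those of starts 1 and 3 held 1 match each to GAGGAA. The window of start 2 and that of Cd36 held no match to either motif. Among 32851 RefSeq promoters cut in the same way, 6.75% held TGANTCA and 23.3% held GAGGAA. An E-box, CACGTG, was searched as well: it was in 6.02% of all promoters and in none of the windows of the 7 genes. None of these matches overlapped another. They are letters in a window and not measured sites.

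Levels were first compared between genes per length, in TPM. Apoe, the main lipid carrier secreted by macrophages, and Spp1, the secreted integrin- and CD44-binding protein osteopontin, were among the most abundant transcripts of these tumours. By mean TPM over the 52 libraries Apoe ranked 37th and Spp1 39th among all genes. Lgals3, the galactoside-binding lectin galectin-3, came after these in every library and ranked 267 overall. Cd68, a lysosomal glycoprotein, Fabp5, a cytosolic fatty acid carrier, and Trem2 followed at ranks 928, 1210 and 1450. Adgre1, which encodes the macrophage surface antigen F4/80, the fatty acid receptor gene Cd36 and the lipoprotein lipase gene Lpl had ranks from 4652 to 5333. Gpnmb, a glycoprotein of lysosome-rich macrophages, was last in every library, with 0.248 to 8.98 TPM and 18 to 1384 counts.

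Spread between libraries differed among the genes. On the CPM scale, normalised by TMM, the highest library was 3.39 times the lowest for Adgre1 and 3.95 times for Apoe. The same ratio was 21.6 for Lpl, 17.1 for Gpnmb and 16.5 for Cd36. On the TPM scale it was lowest for Trem2, at 3.79, and Lgals3, at 5.05, against 6.50 for Apoe and 8.27 for Adgre1. Which gene was steadiest thus depended on the scale, while the lipase, Gpnmb and the fatty acid receptor varied most on both.

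**Figure D1:**
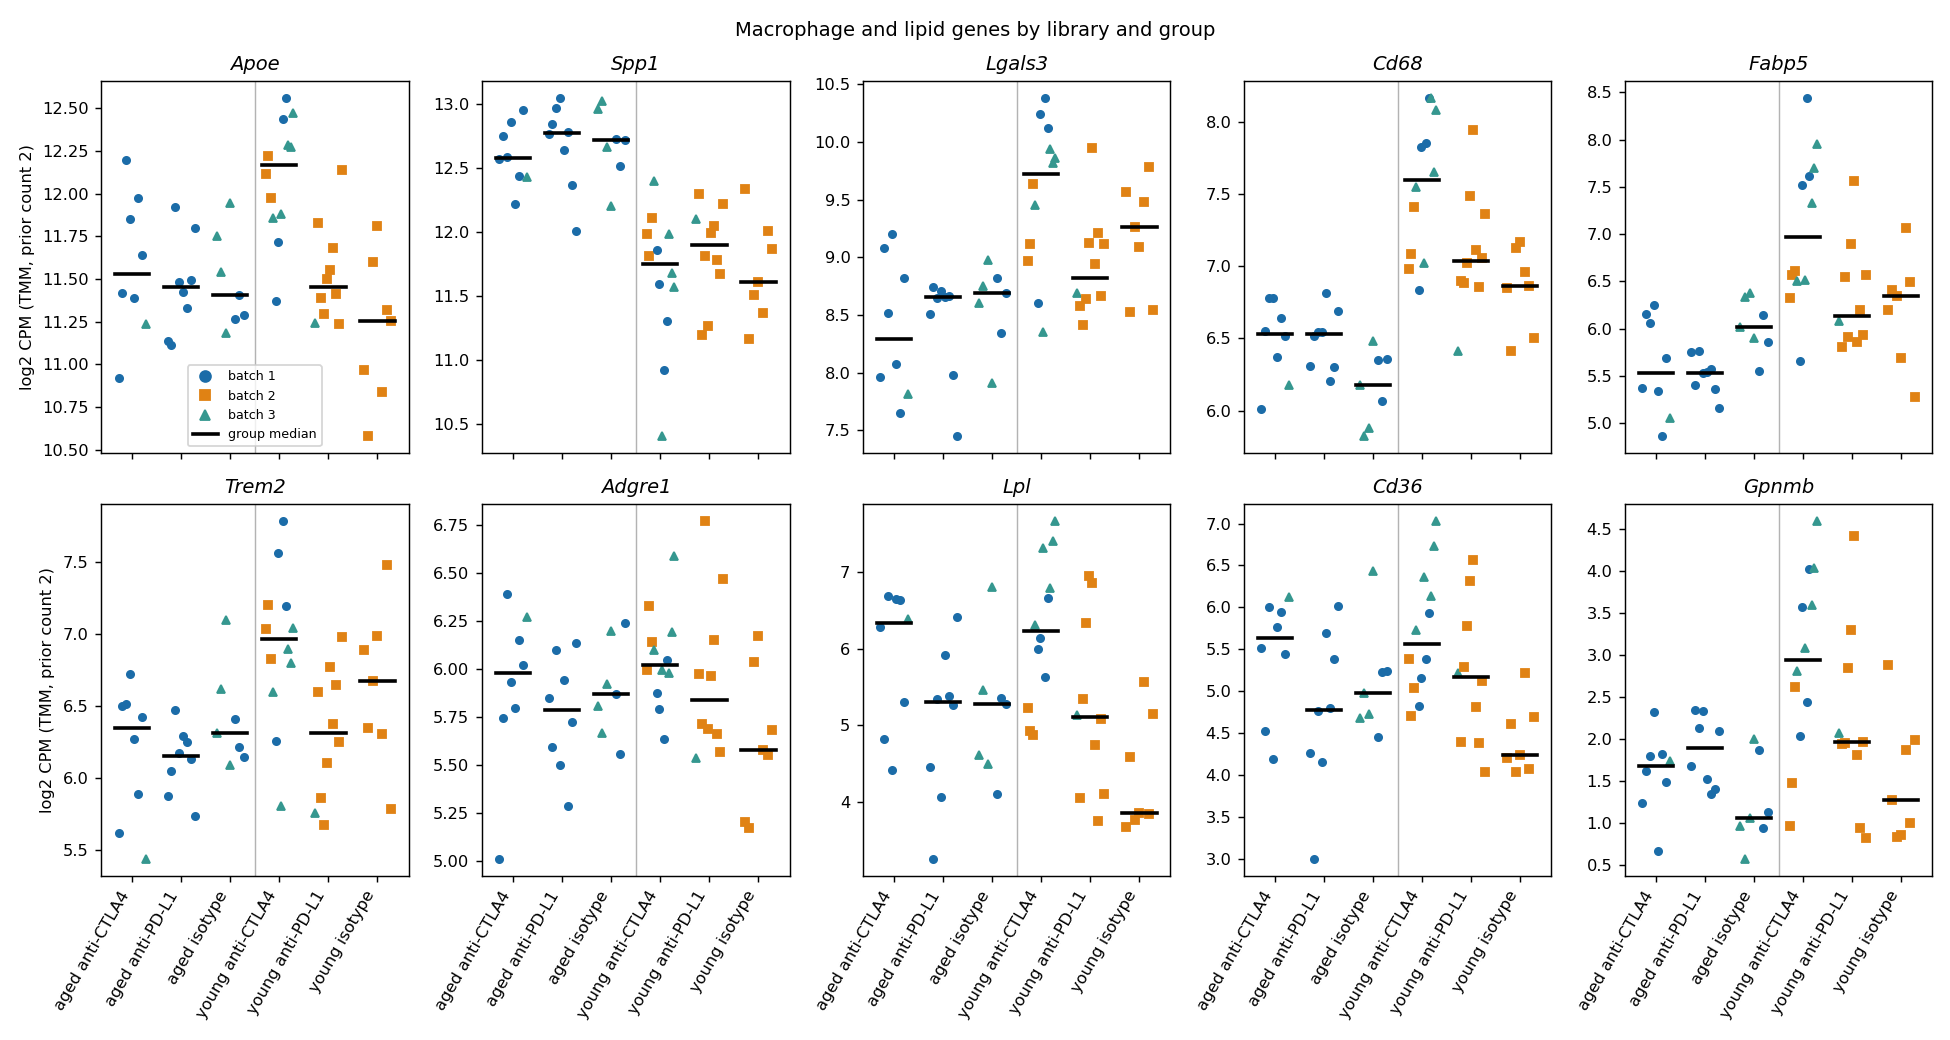
Level of each gene as log2 CPM (TMM-normalised, prior count of 2) in each of the 52 libraries, by group, with sequencing batch as colour and shape and the group median as a bar. Spp1 sat higher in the aged groups to the left of the grey line, and Cd68 sat lower there, while Adgre1 showed little difference between the groups.

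The contrast of aged with young hosts under anti-CTLA4 asked how host age goes with these genes, and it is the one with a shared batch. The lysosomal, lectin and fatty acid carrier genes were lower in aged tumours and osteopontin was higher. Of the 10 genes, 5 fell (Cd68, Fabp5, Lgals3, Gpnmb and Trem2) and 1 rose (Spp1), at an adjusted p under 0.05. Among all 17899 genes tested, 30.6% passed in this comparison, 14.8% as higher and 15.9% as lower. The members' median log2 fold change was -0.67, against -0.06 over all genes tested.

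Cd68 had a lowest, median and highest level of 64.6, 92.4 and 109.8 CPM in the 8 aged anti-CTLA4 libraries, against 114.2, 193.6 and 286.7 CPM in the 12 young ones. No aged library reached the lowest young one, a separation that 1.85% of all genes showed in either direction. The log2 fold change of Cd68 was -1.26 ± 0.19 (SE; edgeR adjusted p = 4.04e-06).

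Fabp5 had 29.0, 46.4 and 75.9 CPM (lowest, median, highest) in aged anti-CTLA4 tumours and 50.4, 129.3 and 347.7 CPM in young ones. The ranges overlapped at the low end of the young group, where replicate 5 stood at 50.4 CPM. Fabp5 showed the largest fall of the 10 genes, with a log2 fold change of -1.80 ± 0.29 (edgeR adjusted p = 1.49e-05). Reads of its processed copies elsewhere in the genome may have been shared with it by the quantification, so its counts are uncertain.

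Lgals3 had 200.6, 317.7 and 588 CPM in aged anti-CTLA4 tumours, against 326.4, 847.6 and 1334 CPM in young ones. Its ranges overlapped, although the young median lay above every aged library. Its log2 fold change was -1.39 ± 0.26 (edgeR adjusted p = 0.000111).

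Gpnmb had 1.5, 3.11 and 4.90 CPM in aged anti-CTLA4 tumours and 1.86, 7.64 and 24.0 CPM in young ones. The lowest young libraries lay within the aged range, and the highest stood far above it. On the log2 scale it changed by -1.75 ± 0.43 (edgeR adjusted p = 0.00176), with the largest SE of the genes that passed.

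Trem2, the lipid-sensing receptor, had 43.3, 81.4 and 105.6 CPM in aged anti-CTLA4 tumours, against 55.7, 125.2 and 220.7 CPM in young ones. Most of the young range lay above the aged median, but the groups overlapped. The log2 fold change of Trem2 was -0.87 ± 0.22 (edgeR adjusted p = 0.0027), and limma on log2(TPM + 1) did not call it.

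Spp1 went the other way. It had 4757, 6121 and 7919 CPM in aged anti-CTLA4 tumours and 1355, 3437 and 5382 CPM in young ones. Only the upper end of the young group reached into the aged range. The log2 fold change of Spp1 was 1.03 ± 0.21 (edgeR adjusted p = 0.000264).

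The other 4 genes did not pass in this comparison. Apoe had 1938, 2967 and 4698 CPM in aged anti-CTLA4 tumours, against 2648, 4610 and 6045 CPM in young ones. The young median was close to the highest aged library, and the ranges overlapped. Apoe had a log2 fold change of -0.46 ± 0.19 (edgeR adjusted p = 0.0596). Leaving out 1 of 4 single libraries (aged replicates 3 or 6, young replicates 5 or 6) brought it past the threshold, at adjusted p = 0.019 to 0.0461. Over all 20 single omissions it ran from -0.57 to -0.34, with a largest edgeR adjusted p of 0.205.

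Adgre1 had 32.2, 62.9 and 83.7 CPM in aged anti-CTLA4 tumours, against 49.7, 64.8 and 96.1 CPM in young ones (log2 fold change 0.04 ± 0.17). Cd36 had 18.2, 49.9 and 69.7 CPM in aged and 25.9, 47.4 and 130.7 CPM in young anti-CTLA4 tumours (-0.06 ± 0.36). Lpl had 21.2, 80.9 and 103.2 CPM in aged and 29.3, 75.1 and 203.8 CPM in young ones (-0.21 ± 0.47). The medians of these genes lay close together at the 2 ages, and the SE of Cd36 and Lpl were the wider ones.

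Within batch 1 the same 6 genes passed, in the same directions, where 29.3% of 17690 genes passed. Cd68 stood at 64.6 to 109.8 CPM in the 7 aged libraries of that batch, against 114.2, 226.6, 231.1 and 286.2 CPM in the 4 young ones (replicates 5, 6, 8 and 9). Spp1 stood at 4757 to 7919 CPM in those 7 aged libraries, against 3708, 3092, 1937 and 2531 CPM in the 4 young ones. Both genes separated the ages fully in batch 1, as 11.5% of all genes did. Young replicate 5 was the lowest of the 4 in Cd68, Fabp5, Lgals3, Gpnmb and Trem2 and the highest in Spp1.

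Log2 fold changes in batch 1 were -1.19 ± 0.19 for Cd68, -1.85 ± 0.32 for Fabp5 and -1.40 ± 0.31 for Lgals3. Gpnmb, Trem2 and Spp1 stood at -1.60 ± 0.34, -0.98 ± 0.22 and 1.20 ± 0.21 there. Leaving out any 1 of the 11 libraries of batch 1 kept all 6 calls, with the largest adjusted p = 0.025, for Trem2. This alternative was added after the data were seen. Apoe had -0.41 ± 0.24 in batch 1 (edgeR adjusted p = 0.21).

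A library measure moved with this contrast: the length trend, which is the slope over genes of a library's log2 CPM deviations on log2 transcript length. It averaged 0.115 in aged and -0.0527 in young anti-CTLA4 libraries. In batch 1 it ran from 0.00759 to 0.226 in aged libraries, against 0.0838, -0.117, -0.411 and -0.0255 in young replicates 5, 6, 8 and 9. With the length trend as a covariate the same 6 genes passed in the same directions. Cd68 then stood at -1.38, Fabp5 at -1.48, Lgals3 at -1.18, Gpnmb at -2.21 and Spp1 at 1.05, and Trem2 was nearest the threshold, at -0.52 ± 0.21 (edgeR adjusted p = 0.0462).

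**Figure D2:**
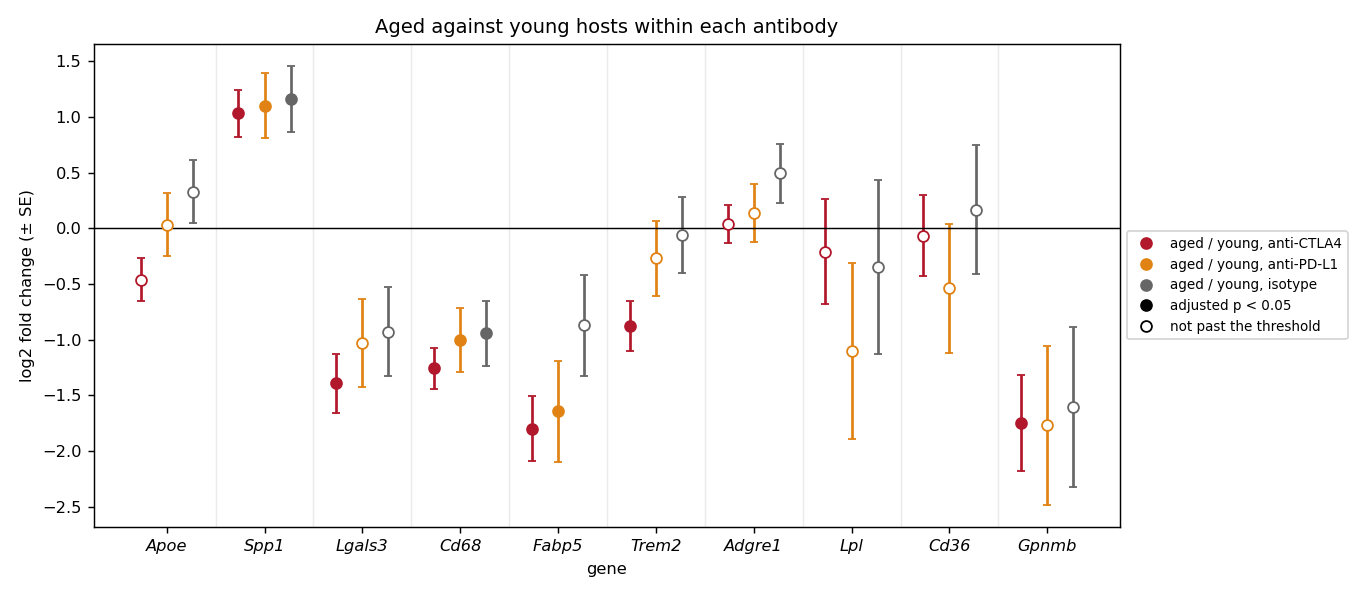
Log2 fold change of aged over young hosts (± SE, edgeR) for each gene under anti-CTLA4, anti-PD-L1 and isotype, with filled points where the adjusted p was under 0.05. Spp1 lay near 1 under all 3 antibodies, and Cd68, Fabp5, Lgals3 and Gpnmb lay below 0 under all 3. The isotype and anti-PD-L1 points rest on batch differences that draw on the young anti-CTLA4 libraries, so the 3 contrasts are not separate observations.

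Other genes of these pathways were read from 5 lists that hold none of the 10. Beside the list counts below stand the shares of all genes in this contrast, 14.8% as higher and 15.9% as lower. Of 22 lysosomal and lipid-associated genes, 1 rose and 11 fell in aged anti-CTLA4 tumours, led by the protease gene Ctsd (-0.92 ± 0.16, edgeR adjusted p = 5.38e-05). The lysosomal genes Ctsb (-0.64) and Hexa (-0.65), the lipid droplet gene Plin2 (-0.89) and the elastase gene Mmp12 (-2.61) also fell, and the kinase gene Axl (0.43) rose. Of 24 genes of macrophage identity, 2 rose and 8 fell, and the smallest p belonged to Fcer1g, the Fc receptor gamma chain (-0.94 ± 0.20, edgeR adjusted p = 0.000372). Cd14 (-0.99), Lyz2 (-1.08) and C1qb (-0.43) fell in this list, and Cx3cr1 (1.69) and Vsig4 (1.32) rose.

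Of 22 genes of lipoprotein and cholesterol handling, 2 rose and 9 fell under anti-CTLA4. Nr1h2, which encodes the oxysterol receptor LXR beta, had the smallest p (-0.49 ± 0.08, edgeR adjusted p = 2.07e-05). Nr1h3, for LXR alpha (-1.55), the cholesterol exporter gene Abcg1 (-1.31) and the phospholipid transfer protein gene Pltp (-1.32) fell with it. The small apolipoprotein genes beside Apoe, Apoc1 (-1.22) and Apoc4 (-1.99), fell too. Of 19 tested genes of fatty acid handling 2 rose and 4 fell, led by the triglyceride synthesis gene Dgat1 (-1.0 ± 0.18, edgeR adjusted p = 4.43e-05).

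Of 20 partners of the members, 2 rose and 6 fell. Hcst, a signalling adaptor of cytotoxic cells and an alternative partner of Trem2, fell (-2.15 ± 0.41, edgeR adjusted p = 0.000122), as did Tyrobp, the adaptor through which Trem2 signals (-0.96), which is counted in the lipid-associated list too. Tfeb (-0.98) and Tfec (-1.03), of the factor family that drives lysosomal genes, fell. Itgb1, an integrin chain that binds osteopontin, rose (0.78). The list medians of the 5 were -0.52, -0.41, -0.49, -0.34 and 0.01 in the order given, against -0.06 over all genes. The split of all calls depended on the scaling: 2644 genes were higher and 2841 lower in edgeR, against 4299 and 1005 in limma on log2(TPM + 1).

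Markers of other cells moved with the same contrast, in which 14.8% of all genes rose and 15.9% fell. Of 12 neutrophil genes, 11 fell in aged anti-CTLA4 tumours, with list levels (mean log2 CPM) of 1.78 to 3.41 in aged and 3.02 to 6.22 in young libraries. Of 12 T cell genes, 9 fell, with list levels of 2.53 to 4.74 in aged and 3.50 to 6.69 in young libraries. Of 12 tumour epithelial genes, 7 rose, among them Epcam (1.07), with list levels of 5.84 to 6.41 in aged and 4.31 to 6.06 in young libraries. No adipocyte gene passed. Mean list levels were 4.68 in aged and 5.43 in young anti-CTLA4 libraries for monocyte genes, and 3.42 and 3.94 for dendritic genes. They were 3.76 and 3.88 for endothelial, 6.74 and 6.58 for fibroblast and 2.62 and 2.38 for B cell genes. For mammary secretory genes they were 1.77 and 2.11, and for skeletal muscle genes 1.00 and 0.67. The part of these shifts in the members' differences was not tested, and in bulk tissue fewer cells of a type and less RNA per cell cannot be told apart.

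Under isotype, aged and young tumours share no batch, so age and batch are separated only through other groups. Spp1 rose and Cd68 fell in aged tumours, 2 of the 10 genes, where 8.41% of all genes passed. Spp1 had 4700, 6744 and 8327 CPM (lowest, median, highest) in the 7 aged isotype libraries, against 2287, 3128 and 5175 CPM in the 7 young ones. The ranges overlapped by a narrow margin, and the log2 fold change was 1.159 ± 0.298 (edgeR adjusted p = 0.012).

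Cd68 had 56.6, 72.2 and 89.3 CPM in aged isotype tumours and 85.0, 116.0 and 143.7 CPM in young ones. Its ranges touched only at their ends. The log2 fold change was -0.94 ± 0.29 (edgeR adjusted p = 0.0357), and the call was lost on leaving out any 1 of aged replicate 2 and young replicates 3, 4 and 5, at adjusted p = 0.0503 to 0.0711. Without the 4 libraries of low TMM factor Cd68 stood at -0.84 (adjusted p = 0.0631). Cd68 did not pass in limma on log2(TPM + 1) or with no filter on low counts either, at adjusted p = 0.37 and 0.0985.

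Lgals3 and Gpnmb had an unadjusted p under 0.05 under isotype, as 24.6% of all genes did, but did not pass. Lgals3 had 240.3, 413.6 and 504.9 CPM in aged and 369.1, 613.5 and 879.6 CPM in young isotype tumours, with a log2 fold change of -0.93 ± 0.40 (edgeR adjusted p = 0.14). Gpnmb, at 1.40, 2.01 and 3.91 CPM in aged and 1.71, 2.33 and 7.26 CPM in young ones, had -1.60 ± 0.72 (edgeR adjusted p = 0.154). Its medians lay closer together than that fold change, which carries a batch term. The other 6 genes ran from -0.87 (Fabp5) to 0.50 (Adgre1), and the median of the 10 was -0.20 against -0.09 over all genes.

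Under anti-PD-L1, where aged and young libraries again share no batch, Spp1 rose and Fabp5 and Cd68 fell, 3 of the 10 genes, beside 5.04% of all genes. Spp1 had 4111, 6983 and 8461 CPM in the 8 aged anti-PD-L1 libraries, against 2336, 3827 and 5033 CPM in the 10 young ones. The ranges overlapped, with a log2 fold change of 1.10 ± 0.30 (edgeR adjusted p = 0.0231).

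Fabp5 had 35.6, 46.2 and 54.1 CPM in aged anti-PD-L1 tumours and 55.9, 70.3 and 189.2 CPM in young ones. No aged library reached the lowest young one, as for 1.4% of all genes in either direction. Its log2 fold change was -1.64 ± 0.45 (edgeR adjusted p = 0.0259).

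Cd68 had 73.6, 92.2 and 112.4 CPM in aged anti-PD-L1 tumours, against 85.2, 131.3 and 245.9 CPM in young ones. The groups overlapped, and the log2 fold change was -1.0 ± 0.29 (edgeR adjusted p = 0.0337). Lgals3 had 175.0, 402.3 and 429.1 CPM in aged and 340.7, 452.6 and 985.7 CPM in young anti-PD-L1 tumours (-1.03 ± 0.40, edgeR adjusted p = 0.118), and did not pass.

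Gpnmb had 2.45, 3.66 and 5.0 CPM in aged and 1.68, 3.81 and 21.3 CPM in young anti-PD-L1 tumours (-1.77 ± 0.71, edgeR adjusted p = 0.136). The young range enclosed the aged one, and the medians lay close together beside that fold change, which carries a batch term. Median Gpnmb in young anti-CTLA4 tumours was 2.69 CPM in batch 2, 8.58 CPM in batch 1 and 12.0 CPM in batch 3. Gpnmb passed on leaving out young replicate 1 (adjusted p = 0.031). Over all 18 single omissions it ran from -2.35 to -1.34, with a largest edgeR adjusted p of 0.202. The other 5 genes ran from -1.10 (Lpl) to 0.14 (Adgre1). All 3 calls were lost with the adipocyte list level as a covariate. In limma on log2(TPM + 1) Spp1 alone of the 10 passed (adjusted p = 0.0447), and with no filter on low counts Fabp5 alone did (edgeR adjusted p = 0.0487). Without the 4 libraries of low TMM factor Cd68 stood at -0.94 (adjusted p = 0.0612) and Fabp5 at -1.35 (adjusted p = 0.0711), and Spp1 kept its call.

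Of the 5 lists, few genes passed in the isotype and anti-PD-L1 contrasts of age. Nr1h2 fell in aged tumours under isotype (-0.45 ± 0.12, edgeR adjusted p = 0.0177) and under anti-PD-L1 (-0.50 ± 0.12, edgeR adjusted p = 0.013). Under isotype the oxidation gene Acadm rose (0.66 ± 0.21, edgeR adjusted p = 0.043) and Tfeb fell (-1.08 ± 0.32, edgeR adjusted p = 0.028). No other gene of the lists passed. Over all genes 781 were higher and 724 lower under isotype and 551 and 352 under anti-PD-L1, against 726 and 240, and 340 and 75, in limma on log2(TPM + 1). The genes of smallest p in the remaining lists were Cx3cr1 (1.85 ± 0.74) and Grn (-0.84 ± 0.29) under isotype, and Cd163 (-2.48 ± 0.82), Mmp12 (-3.15 ± 0.99), Dgat1 (-0.82 ± 0.26) and Tfeb (-0.93 ± 0.31) under anti-PD-L1.

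Ratios within a library do not depend on library scaling. The log2 ratio of Spp1 to Lgals3 TPM ran from 3.14 to 4.26 (median 3.65) over the 23 aged libraries, against 0.01 to 3.20 (median 2.04) over the 29 young ones. The ages overlapped only between 3.14 and 3.20. Spp1 over Cd68 ran from 4.97 to 6.85 in aged and from 2.72 to 5.34 in young libraries. Spp1 over Trem2 (5.37 to 6.80 in aged, 2.94 to 6.15 in young) and over Fabp5 (5.70 to 6.99 and 1.90 to 6.01) overlapped more than over Lgals3. Of the 29 young libraries 19 were of batch 2, which held no aged library. In batch 1 under anti-CTLA4, Spp1 over Lgals3 ran from 3.14 to 4.26 in aged and from 0.01 to 2.73 in young libraries. These ratios were chosen after the fold changes were known and are given as a description. How many other gene pairs separate the ages was not counted.

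Spp1 also changed places with Apoe. The TPM of Spp1 exceeded that of Apoe in 19 of 23 aged libraries and in 4 of 29 young ones. It did so in 6 of 8 aged and 0 of 12 young anti-CTLA4 libraries, and in 7 of 8 aged and 1 of 10 young anti-PD-L1 libraries. Under isotype the counts were 6 of 7 aged and 3 of 7 young libraries. In batch 1 alone the anti-CTLA4 counts were 5 of 7 aged and 0 of 4 young libraries. The pooled counts mix age with batch, as do the ranges above.

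**Figure D3:**
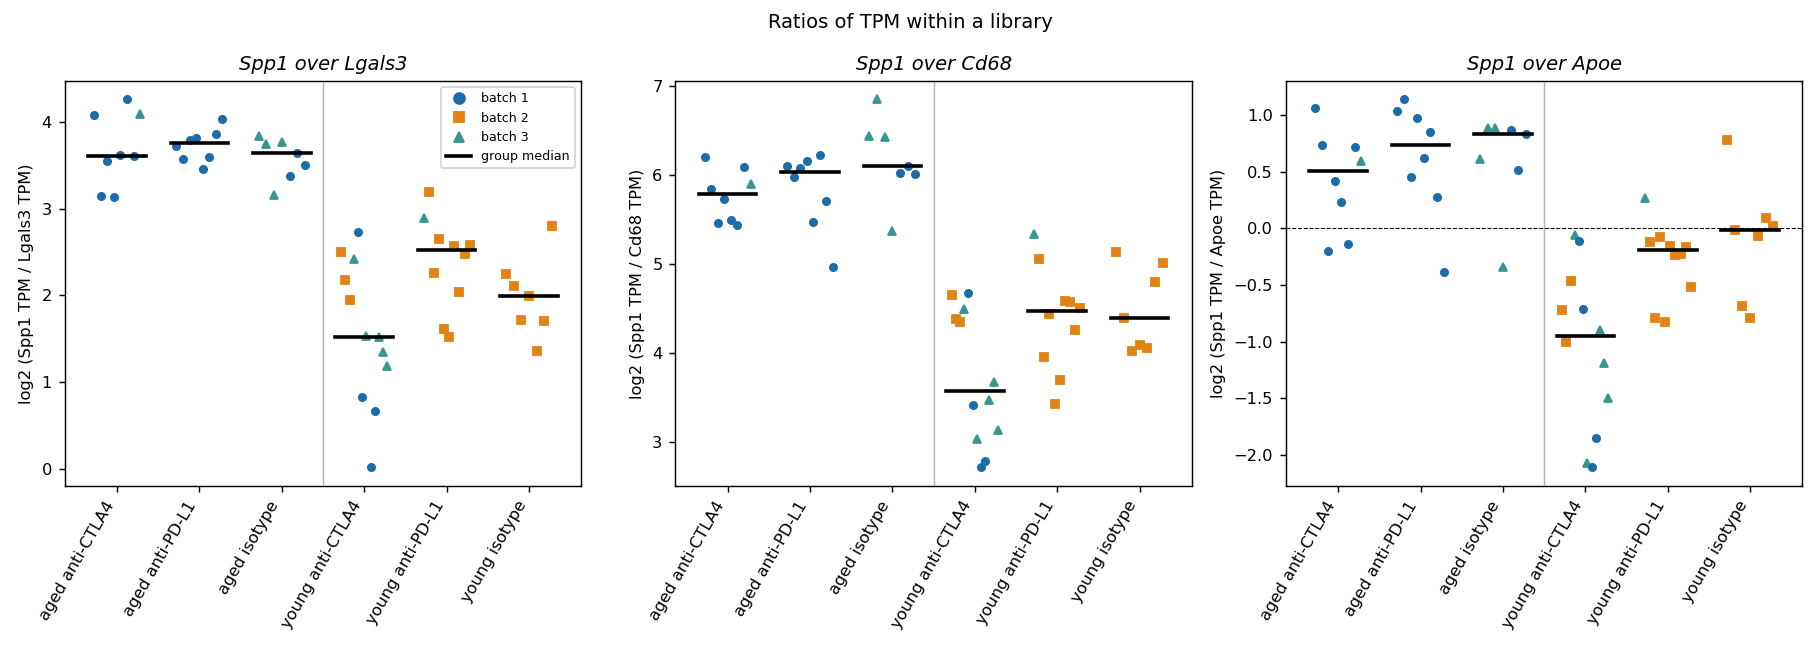
Log2 ratio of Spp1 TPM to Lgals3, Cd68 and Apoe TPM in each library, by group, with batch as colour and shape and the group median as a bar. In the left panel the 23 aged libraries lie at 3.14 or above and the 29 young ones at 3.20 or below.

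Antibody effects were read against isotype within each age. The length trend differed in these contrasts as well. In aged hosts it averaged 0.115 under anti-CTLA4, 0.117 under anti-PD-L1 and -0.0667 under isotype. In young hosts the averages were -0.0527, 0.0228 and -0.140 in the same order. Fold changes of the members with the length trend as a covariate are not given for these contrasts. In young hosts anti-CTLA4 was set against isotype over 12 and 7 libraries, of which 3 and 7 were in batch 2. The macrophage and lipid genes leaned higher: all 10 had positive log2 fold changes, from 0.11 (Spp1) to 0.94 (Apoe), with a median of 0.56 against -0.04 over all genes. Several of them vary together across libraries, so the 10 directions are not separate observations. Their median was lower with the macrophage list level as a covariate. In edgeR 0 of the 10 passed, where 0.0726% of all genes passed, and 3 had an unadjusted p under 0.05, as 6.97% of all genes did. DESeq2 called 1 (Apoe) and 0.285% of all genes, and limma on log2(TPM + 1) called 0.

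Apoe had 2648, 4610 and 6045 CPM (lowest, median, highest) in young anti-CTLA4 tumours, against 1531, 2443 and 3585 CPM in young isotype tumours. The median of the treated group lay above every isotype library. The log2 fold change of Apoe was 0.94 ± 0.23 (edgeR adjusted p = 0.107), and without young isotype replicate 4 it passed, at 1.06 (adjusted p = 0.042). Over all 19 single omissions it ran from 0.85 to 1.06, with a largest edgeR adjusted p of 0.272.

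Adgre1 had 49.7, 64.8 and 96.1 CPM under anti-CTLA4 and 36.0, 47.7 and 72.0 CPM under isotype in young hosts, with overlapping ranges (0.59 ± 0.22, edgeR adjusted p = 0.468). Cd68 had 114.2, 193.6 and 286.7 CPM under anti-CTLA4, against 85.0, 116.0 and 143.7 CPM under isotype (0.55 ± 0.24, edgeR adjusted p = 0.592). The upper part of the treated range of Cd68 had no counterpart under isotype. Within batch 2, over 3 and 7 libraries, Apoe stood at 0.85 ± 0.24, Adgre1 at 0.48 ± 0.24 and Cd68 at 0.30 ± 0.22, and none of the 10 genes passed. With no batch term 6 of the 10 genes passed (Apoe, Cd36, Cd68, Fabp5, Gpnmb and Lpl), and so did 6.93% of all genes.

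Anti-PD-L1 in young hosts went with higher lipase and fatty acid receptor values, none of which passed. In edgeR 0 of the 10 genes passed, beside 1.59% of all genes, and 4 had an unadjusted p under 0.05, beside 24.2%. DESeq2 and limma on log2(TPM + 1) called 0. Cd36 had 16.3, 36.0 and 94.8 CPM in young anti-PD-L1 tumours, against 16.3, 18.8 and 37.1 CPM in young isotype tumours (0.86 ± 0.35, edgeR adjusted p = 0.134).

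Lpl had 13.3, 34.4 and 123.5 CPM under anti-PD-L1 and 12.6, 14.3 and 47.5 CPM under isotype in young hosts (1.05 ± 0.45, edgeR adjusted p = 0.151). For both genes the groups shared their low end and differed at the high end. Gpnmb, with 1.68, 3.81 and 21.3 CPM under anti-PD-L1, against 1.71, 2.33 and 7.26 CPM under isotype, stood at 0.86 ± 0.41 (edgeR adjusted p = 0.189). Leaving out 1 library at a time moved Gpnmb between 0.36 (without young anti-PD-L1 replicate 6, adjusted p = 0.573) and 1.20 (without young isotype replicate 1). Adgre1 stood at 0.35 ± 0.17 (edgeR adjusted p = 0.191), with 46.4, 57.4 and 109.0 CPM against 36.0, 47.7 and 72.0 CPM. Within batch 2, over 9 and 7 libraries, Cd36, Lpl, Gpnmb and Adgre1 stood at 0.95 ± 0.33, 1.17 ± 0.47, 0.98 ± 0.50 and 0.38 ± 0.18, and none passed. In the fit over all libraries the other 6 ran from -0.34 (Trem2) to 0.31 (Apoe), and the median of the 10 was 0.30 against 0.02 over all genes.

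In aged hosts 0 of the 10 genes passed in edgeR under either antibody, as did 0% of all genes, and DESeq2 and limma on log2(TPM + 1) also called 0 of the 10. At an unadjusted p under 0.05 there was 1 under anti-CTLA4, beside 29.7% of all genes, and there were 2 under anti-PD-L1, beside 30.1%. Lpl had 21.2, 80.9 and 103.2 CPM in aged anti-CTLA4 tumours, against 17.1, 38.6 and 112.4 CPM in aged isotype tumours (1.03 ± 0.50, edgeR adjusted p = 0.16). Its ranges lay almost on top of each other, with a higher median under the antibody.

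Trem2 stood at -0.42 ± 0.25 (edgeR adjusted p = 0.244) in aged hosts under anti-CTLA4 and at -0.55 ± 0.26 (edgeR adjusted p = 0.146) under anti-PD-L1, where it had 53.2, 71.1 and 88.8 CPM against 68.2, 79.4 and 137.2 CPM under isotype. Fabp5 had 35.6, 46.2 and 54.1 CPM in aged anti-PD-L1 tumours, against 46.7, 64.6 and 83.1 CPM in aged isotype tumours (-0.66 ± 0.32, edgeR adjusted p = 0.159). Both overlapped between the groups. Within batch 1, over 7 and 3 libraries, Lpl under anti-CTLA4 stood at 1.07 ± 0.58 and Trem2 at 0.07 ± 0.25. Over 8 and 3 libraries of that batch, Trem2 and Fabp5 under anti-PD-L1 stood at -0.14 ± 0.24 and -0.37 ± 0.34. The medians of the 10 were 0.14 under anti-CTLA4 and 0.05 under anti-PD-L1, against 0.02 and 0.05 over all genes.

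**Figure D4:**
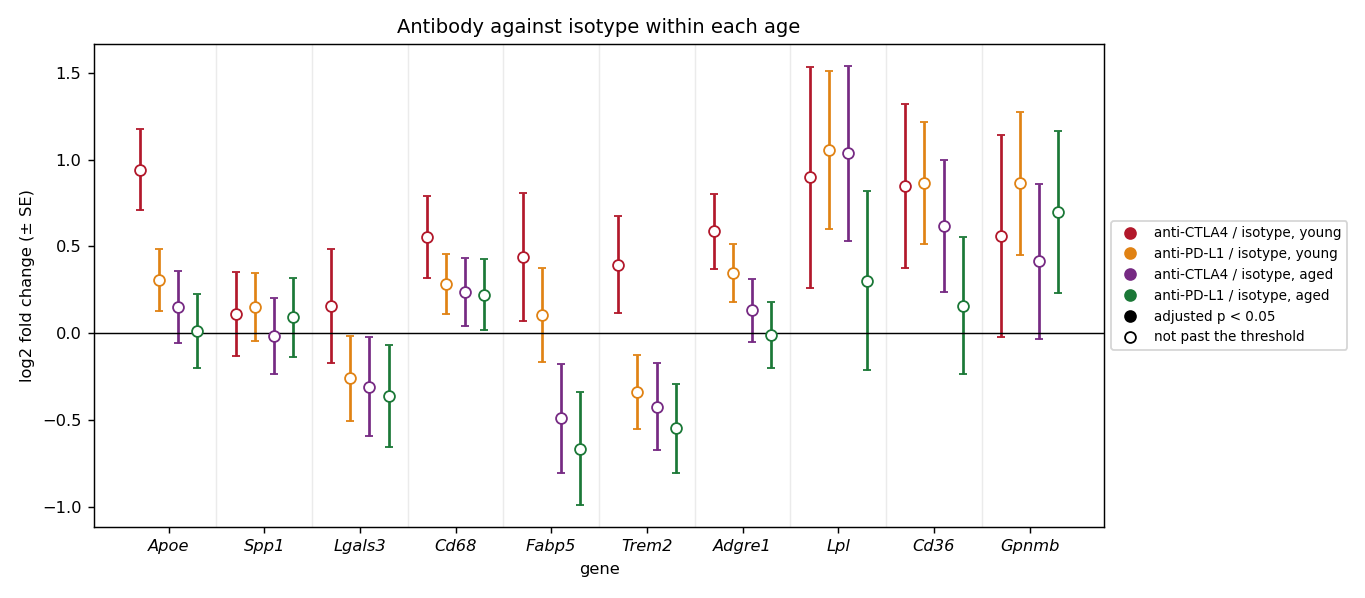
Log2 fold change of antibody over isotype (± SE, edgeR) for each gene in young and aged hosts. No point is filled, since none passed an adjusted p of 0.05, and Apoe under anti-CTLA4 in young hosts lies at 0.94.

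No gene of the 5 lists passed against isotype with either antibody at either age in edgeR. Under anti-CTLA4 in young hosts the genes of smallest p in the 5 lists were Mpeg1 (0.76 ± 0.21), Hexa (0.56 ± 0.18), Mylip (0.52 ± 0.25), Angptl4 (0.79 ± 0.43) and Mitf (0.71 ± 0.27). Under anti-PD-L1 in young hosts they were Lyz2 (-0.83 ± 0.29), Lipa (0.37 ± 0.12), Abca1 (0.89 ± 0.30), Angptl4 (0.95 ± 0.31) and Tyrobp (-0.75 ± 0.27). In aged hosts they were Csf1r (0.70 ± 0.22), Grn (0.59 ± 0.20), Srebf1 (0.53 ± 0.19), Ppard (0.48 ± 0.20) and Plcg2 (0.58 ± 0.21) under anti-CTLA4. Under anti-PD-L1 in aged hosts they were Ms4a7 (-0.84 ± 0.27), Acp5 (-0.49 ± 0.16), Apoc2 (-0.93 ± 0.38), Ppard (0.49 ± 0.21) and Itgb3 (0.65 ± 0.24).

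The antibodies were also set against each other. In young hosts anti-CTLA4 over anti-PD-L1 gave Apoe 0.63 ± 0.21 and Trem2 0.73 ± 0.25 (edgeR adjusted p = 0.657 for each), with 4610 against 2810 CPM and 125.2 against 79.5 CPM as medians. In aged hosts Lpl (0.73 ± 0.45) and Cd36 (0.46 ± 0.35) had the smallest p. In edgeR 0 of the 10 passed at either age, as 0% of all genes did, and DESeq2 and limma called 0. At an unadjusted p under 0.05 there were 2 in young hosts (6.94% of all genes) and 0 in aged hosts (1.36%).

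The difference of the antibody effect between ages was tested as an interaction. For anti-CTLA4, aged minus young, Apoe stood at -0.79 ± 0.31 and Trem2 at -0.82 ± 0.37 (edgeR adjusted p = 0.634 for each). For anti-PD-L1 the smallest p belonged to Fabp5 (-0.77 ± 0.42) and Adgre1 (-0.36 ± 0.25). In edgeR 0 of the 10 passed in either, as 0% of all genes did, and DESeq2 and limma called 0. At an unadjusted p under 0.05 there were 2 for anti-CTLA4 (7.02% of all genes) and 0 for anti-PD-L1 (3.66%). No antibody effect on these genes was therefore shown to differ between the ages.

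The order of the 6 groups differed by gene. Young anti-CTLA4 had the highest median log2 CPM for Apoe, Trem2, Cd68, Gpnmb, Adgre1, Lgals3 and Fabp5. Its mean differed from that of the next group by more than both SDs only for Apoe and Fabp5. For Trem2, Cd68, Gpnmb, Adgre1 and Lgals3 it did not. Within batch 2, median Lgals3 was lower in young anti-CTLA4 than in young isotype libraries (553.3 against 613.5 CPM), while the other genes of this row were higher. For Apoe the next group, aged anti-CTLA4, stood apart from it (11.6 ± 0.42 in aged and 12.1 ± 0.35 in young anti-CTLA4 tumours, mean ± SD), and the remaining 5 groups did not differ from their neighbours by more than their SDs. For Spp1 the 3 aged groups came first, at means of 12.6 to 12.7, followed by the 3 young groups at 11.6 to 11.8, and only the step between the ages exceeded both SDs. For Lpl both anti-CTLA4 groups came first and young isotype last.

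Across the 52 libraries the genes fell into patterns by the company they kept. Lpl and Cd36 varied together, with a Pearson r of 0.95 and a Spearman rho of 0.94 (both permutation p = 1e-05, which is the least that 100000 resamples allow; adjusted over 45 pairs 4.5e-05 and 5e-05). Leaving out the 2 libraries farthest from the median gave 0.94, and r was 0.92, 0.97 and 0.97 within batches 1, 2 and 3. Both went with the level of 13 adipocyte genes, which include neither of them. For Lpl the r was 0.88 and rho 0.92, and for Cd36 they were 0.87 and 0.89 (permutation p = 1e-05 for each; adjusted over 160 relations 4.32e-05 for r and 6.4e-05 for rho). Without the 2 libraries farthest from the median these r were 0.89 and 0.85, and within batches they ran from 0.88 to 0.95. Lists of other cells went with both genes too. With the endothelial genes r was 0.72 for Lpl (rho 0.72) and 0.75 for Cd36 (rho 0.76), and with the fibroblast genes it was 0.73 (rho 0.70) and 0.71 (rho 0.71), each with the same p and adjusted p as for the adipocyte list. Without the 2 farthest libraries these r were 0.69, 0.72, 0.68 and 0.65, and within batches they ran from 0.45 (Lpl, fibroblast, batch 1) to 0.93 (Cd36, endothelial, batch 3).

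The adipocyte list level moved with the antibody contrasts as well. Its median was 5.30 in aged anti-CTLA4, 4.46 in aged anti-PD-L1 and 3.91 in aged isotype tumours, and 5.31, 4.57 and 3.47 in the young groups in the same order. With that level as a covariate Lpl stood at 0.06 ± 0.29 and Cd36 at 0.07 ± 0.23 under anti-CTLA4 in young hosts. Under anti-PD-L1 in young hosts they stood at 0.13 ± 0.22 and 0.14 ± 0.18, and Lpl under anti-CTLA4 in aged hosts stood at 0.17 ± 0.25.

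On the log2 CPM scale Lgals3, Fabp5, Cd68 and Trem2 went most closely with the 22 lipid-associated genes, and with each other to unequal degrees. Lgals3 and Fabp5 had r = 0.85 and rho = 0.75, and Trem2 and Lgals3 had r = 0.81 and rho = 0.80 (permutation p = 1e-05; adjusted over 45 pairs 4.5e-05 for r and 5e-05 for rho). Within batches 1, 2 and 3 these r were 0.91, 0.61 and 0.90 for the first pair and 0.92, 0.63 and 0.81 for the second. They were 0.82 and 0.77 without the 2 libraries farthest from the median. Cd68 had r = 0.75 and rho = 0.69 with Lgals3 and r = 0.76 and rho = 0.67 with Fabp5, and Trem2 had r = 0.69 and rho = 0.65 with Fabp5, each with the same p and adjusted p as above. Within batches 1, 2 and 3 these 3 r were 0.79, 0.56 and 0.76, then 0.83, 0.60 and 0.79, then 0.92, 0.25 and 0.75, and without the 2 farthest libraries they were 0.71, 0.71 and 0.62. The weakest pair was Trem2 with Cd68 (r = 0.55, rho = 0.53, permutation p = 4e-05 and 7e-05; adjusted 0.000129 and 0.000262), at 0.84, 0.23 and 0.40 within batches and 0.52 without the 2 farthest libraries. Against the list level r was 0.90 for Lgals3, 0.89 for Fabp5, 0.85 for Cd68 and 0.78 for Trem2, with rho of 0.89, 0.81, 0.75 and 0.81. After removing group and batch means r was 0.88, 0.80, 0.80 and 0.74, and without the 2 libraries farthest from the median it was 0.89, 0.86, 0.81 and 0.77. Within batches these r ran from 0.57 (Trem2, batch 2) to 0.95 (Lgals3, batch 3). Each permutation p was 1e-05, adjusted over 160 relations to 4.32e-05 for r and 6.4e-05 for rho. Other members went with this list too. On log2 CPM r was 0.65 for Apoe (rho 0.56) and 0.64 for Gpnmb (rho 0.34). Cd68 had r = 0.73 with Gpnmb (rho 0.55). The grouping depended on the scale. On log2 TPM r with the list was 0.91 for Cd68, 0.71 for Lgals3, 0.67 for Fabp5 and 0.64 for Trem2. It was 0.86 for Apoe, 0.81 for Gpnmb, 0.79 for Adgre1, 0.71 for Cd36, 0.69 for Lpl and 0.26 for Spp1 on that scale.

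Apoe and Adgre1 went best with the 24 genes of macrophage identity, at r = 0.75 and rho = 0.72 for Apoe and r = 0.69 and rho = 0.69 for Adgre1 (permutation p = 1e-05; adjusted over 160 relations 4.32e-05 for r and 6.4e-05 for rho). Without the 2 libraries farthest from the median r was 0.71 and 0.60, and after removing group and batch means it was 0.62 and 0.68. Within batches it ran from 0.71 to 0.78 for Apoe and from 0.68 to 0.73 for Adgre1.

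Spp1 kept other company. Its r with the 24 genes of macrophage identity was -0.21 (rho -0.24, permutation p = 0.143 and 0.086; adjusted 0.185 and 0.124), and it ran from -0.53 in batch 1 to 0.50 in batch 2. On the log2 TPM scale that r was 0.38, so its sign depends on the scale. With the 12 tumour epithelial genes r was 0.67 and rho 0.50 (permutation p = 1e-05 and 0.00016; adjusted 4.32e-05 and 0.000595), 0.54 without the 2 farthest libraries, and 0.71, 0.37 and 0.91 within batches 1, 2 and 3. With the 22 lipoprotein and cholesterol genes r was -0.72 and rho -0.76 (permutation p = 1e-05; adjusted 4.32e-05 and 6.4e-05), -0.69 without the 2 farthest libraries, and -0.81, -0.44 and -0.79 within batches. On the log2 TPM scale that r was 0.17, so its sign too depends on the scale. With the monocyte genes r was -0.67 and rho -0.64 (permutation p = 1e-05; adjusted 4.32e-05 and 6.4e-05), -0.61 without the 2 farthest libraries, and -0.74, -0.56 and -0.88 within batches. With the T cell genes r was -0.64 and rho -0.54 (permutation p = 1e-05 and 3e-05; adjusted 4.32e-05 and 0.000141), -0.53 without the 2 farthest libraries, and -0.77, -0.63 and -0.92 within batches. On log2 TPM these r were -0.14 and -0.36. After removing group and batch means r was 0.11 with macrophage identity, 0.50 with tumour epithelial and -0.56 with lipoprotein and cholesterol genes. It was -0.63 with monocyte and -0.68 with T cell genes. With Cd68 r was -0.59 and rho -0.67 (permutation p = 1e-05; adjusted over 45 pairs 4.5e-05 and 5e-05). Without the 2 farthest libraries it was -0.60. Within batches 1, 2 and 3 that r was -0.79, 0.19 and -0.55, so its sign turned in batch 2, and it was -0.01 after removing group and batch means.

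**Figure D5:**
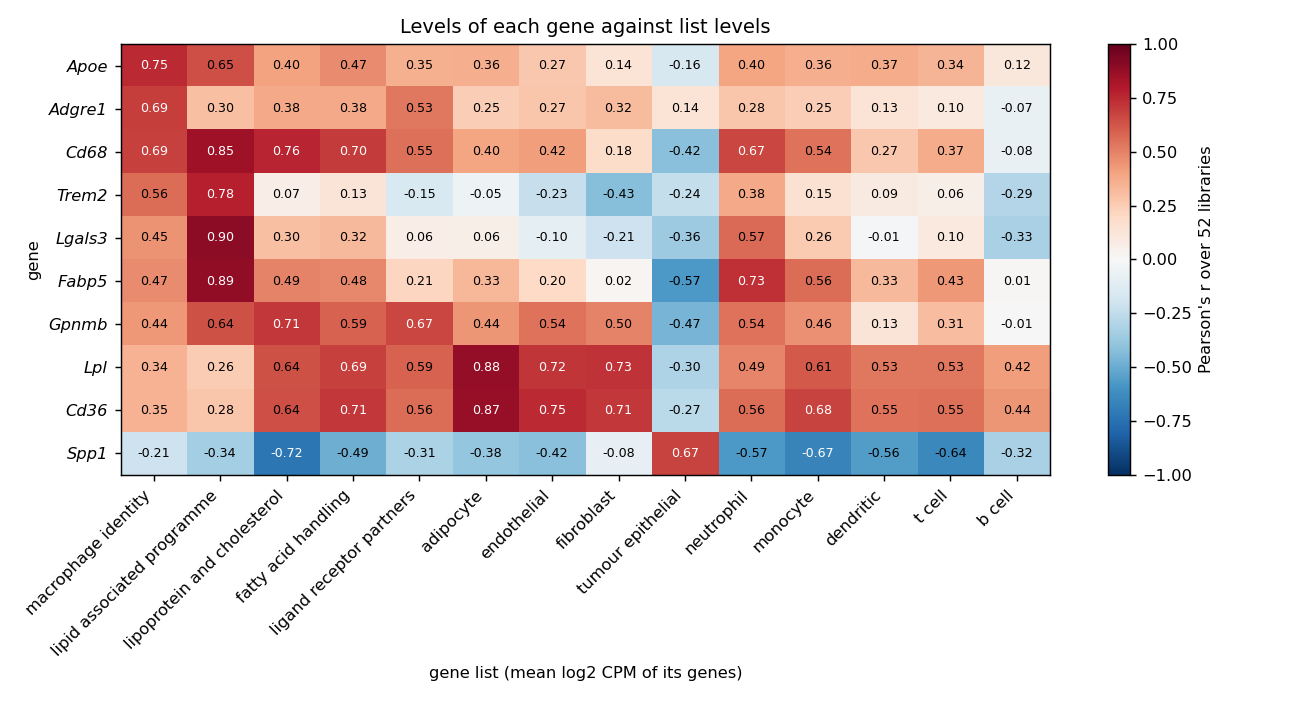
Pearson's r over the 52 libraries between the log2 CPM of each gene (rows) and the mean log2 CPM of each gene list (columns), which include none of the 10 genes. Lpl and Cd36 reach 0.88 and 0.87 with adipocyte genes, Lgals3 reaches 0.90 with lipid-associated genes, and Spp1 reaches 0.67 with tumour epithelial genes.

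The genes most like each member, by r over the 52 libraries among 13028 named genes with a mean of at least 1 CPM, are given as a description. Cd68 was most like the lysosomal protease genes Ctsb (0.94) and Ctsd (0.91), with Tmem189 (0.92) between them. Trem2 was most like the Fc receptor gene Fcgr3 (0.92), then Msrb1 (0.89) and S100a1 (0.88). Apoe was most like Hexa (0.80), which encodes a lysosomal hexosaminidase subunit, Atp6v1b2 (0.78), a subunit of the proton pump that acidifies lysosomes, and P2rx4 (0.78). Adgre1 was most like Tlr13 (0.74), Acp2 (0.71) and C3ar1 (0.68).

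Lgals3 was most like Fxyd5 (0.91), Tnfrsf9 (0.90) and Fth1 (0.89), and Fabp5 was most like Pf4 (0.91), Arg2 (0.90) and Dtnbp1 (0.90). Gpnmb was most like the interleukin-1 antagonist gene Il1rn (0.81), Mxd1 (0.81) and Dusp1 (0.80). Lpl was most like Cd36, Steap4 (0.92) and Ces1d (0.91), and Cd36 was most like Lpl, Steap4 (0.91) and Efemp1 (0.91). The genes most like Spp1 were Lhfp (0.93), Rcn2 (0.92) and Macc1 (0.91), none of which is in the lists of macrophage genes.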

How the data were processed

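Poly(A)-selected, strand-marked RNA of 52 tumours was sequenced in 3 batches, per the labels. Salmon, DESeq2 1.16.1 and the build mm10 appear in the submitters' processing notes. The authors deposited estimated counts per Ensembl gene, all whole numbers, and TPM values of the same libraries. Within a library, count over TPM was the same multiple of a fixed length for each gene checked. The summing of transcripts to genes is not stated in the labels. Of 47729 identifiers, 47224 matched a GENCODE vM21 symbol.

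The test was edgeR 4.0.16 (R 4.3.3) with filterByExpr (17899 genes), TMM, 1 fit over 52 libraries with terms for group and batch, and quasi-likelihood F tests. The threshold was 0.05 after Benjamini-Hochberg adjustment over all genes. Errors of log2 fold changes are SE. Log2 CPM had 2 as prior count, and its mean over the genes of a list gave the list level. TPM served for levels between genes, ratios and limma 3.58.1 on log2(TPM + 1). Alternatives were DESeq2 1.42.0, size factors by relative log expression, no filter, no batch term, only the groups compared, single batches, a replicate block, covariates, and leaving out libraries. The procedure was tested on simulated data. For anti-CTLA4 against isotype in young hosts it recovered 42 of 100 2-fold and 76 of 100 4-fold changes, with 8 false calls. For age under anti-CTLA4 it recovered 55 and 85 of 100, with 2 false calls. Correlations used permutation tests over all 52 libraries without regard to group or batch, so their p-values also take in differences between group and batch means.

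Every member is given by its levels. Its fold change is given where the unadjusted p was under 0.05, or else for the 2 of smallest p. Each list gives its counts and its gene of smallest p, and other list genes named were picked from those that passed after their values were seen. The members and lists were chosen with earlier results of these data known. The motifs and ratios were chosen after seeing the data. Promoters are from RefSeq, build GRCm38.p6. Some genes of the lipoprotein and cholesterol list are not reported here.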

Additional observations from a re-analysis of the deposited data

Results flagged for a closer look

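Gaps within groups were examined for the 10 genes in groups of 4 to 10 libraries, 50 groups in all, of which 3 held a library set apart from the rest by Dixon's criterion on log2 CPM. Chance flags about 1 in 20 groups.

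Adgre1, the F4/80 gene, stood at 32.2 CPM in aged anti-CTLA4 replicate 1, below the group median of 62.9 CPM. The list level of macrophage identity genes was also the lowest of that group in this library, at 6.26. Lgals3 stood at 986 CPM in young anti-PD-L1 replicate 6, above the group median of 453 CPM. Cd36 stood at 86.3 CPM in aged isotype replicate 4, above the group median of 31.5 CPM. The adipocyte list level was the highest of that group in the same library, at 5.73.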

How the results depend on the processing

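Of 128 alternative values each for the number of the 10 genes past the threshold and for their median log2 fold change (libraries left out singly aside), 116 of each stayed within 1.5 times or within 1 SD (0.302). For anti-CTLA4 against isotype in young hosts, the number was 1 with DESeq2 and 6 with no batch term, against 0, and the median was 0.18 with the macrophage list level as a covariate. With no batch term, anti-CTLA4 against anti-PD-L1 in young hosts gave 1 gene and a median of 0.61.

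For age under isotype the number was 1, against 2, in limma on log2(TPM + 1), with no filter, with the replicate block and without the libraries of low TMM factor. The block gave a median of 0.15 there, against -0.20. For age under anti-PD-L1 the number was 1, against 3, in limma, with no filter and without the low-TMM libraries, and 0 with the adipocyte covariate and with the replicate block. The median there was -0.17 with the adipocyte covariate, -0.38 with no batch term, -0.37 with only the groups compared, -0.20 with the block and -0.47 in limma, against -0.77. In limma on TPM the median over all genes moved up by more than 0.1 in most contrasts, and the members' medians were 0.62 (anti-PD-L1 in young hosts), 0.52 and 0.47 (anti-CTLA4 and anti-PD-L1 in aged hosts) and -0.28 (age under anti-CTLA4).

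Direction turned in 4 values. Trem2 under anti-CTLA4 in aged hosts stood at 0.074 in batch 1 alone and at 0.10 in limma, against -0.42. With the adipocyte covariate, anti-CTLA4 against anti-PD-L1 in aged hosts gave -0.19 for Lpl and -0.21 for Cd36. The cause of each change was not tested. Leaving out 1 library at a time gave 0 to 1 genes past the threshold for anti-CTLA4 against isotype in young hosts and 1 to 2 for age under isotype, and a median of -1.08 to -0.62 for age under anti-PD-L1.

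Replicate numbers did not pair the samples: deviations of same-numbered libraries correlated above 0.1 in 0 (age under isotype) to 4 of 7 or 8 pairs in the 7 comparisons checked, and in every pair of none. The count was 4 of 7 for anti-PD-L1 against isotype at either age and for anti-CTLA4 against isotype in young hosts. With the block all 6 calls for age under anti-CTLA4 remained. Counts of all genes past the threshold moved more over the alternatives that use both groups with all batches: 0 to 1240 against 13 for anti-CTLA4 and 18 to 863 against 285 for anti-PD-L1 in young hosts, and 0 to 1362 and 0 to 2047 against 0 in aged hosts, with the highest from DESeq2 except 1240, which came with no batch term. Anti-CTLA4 against anti-PD-L1 gave 0 to 306 in young and 0 to 18 in aged hosts, and the interactions 0 to 16 and 0 to 30, each against 0. Age gave 752 (replicate block) to 3921 (length trend) against 1505 under isotype and 35 (replicate block) to 2953 (length trend) against 903 under anti-PD-L1. Age and batch cannot be told apart for isotype and anti-PD-L1 without the other groups.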
